A study of Homo sapiens with 18 samples.

Results

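The genes described here are 27 genes of cholesterol synthesis and its control, chosen by symbol and split by pathway step into 8 enzymes of the mevalonate arm, 12 enzymes of the sterol arm, 5 regulators and 2 sterol handling genes. They were 27 of 31004 genes with counts, and all 27 passed the filter on low counts in every comparison. RNA-seq was carried out on HCT116, a human colorectal carcinoma line, in 18 libraries of 6 groups with 3 biological replicates each. The groups crossed 3 backgrounds with 2 constructs. Cells of the Ctrl background carried the empty control, those of the CRLM1 background stably overexpressed the lncRNA CRLM1, and those of the Antisense background expressed the antisense control of CRLM1. Each background received either the construct control (NC) or a plasmid encoding hnRNPK, an RNA- and DNA-binding protein. According to the study's methods, CRLM1 was delivered by a lentivirus with puromycin selection and hnRNPK by lipofection. A background is therefore a selected line, and the effect of its insert and other differences between lines cannot be told apart.

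Cholesterol is built in the endoplasmic reticulum from acetyl-CoA. The mevalonate arm makes the isoprenoid farnesyl diphosphate, and the sterol arm joins this into squalene, closes the ring and trims lanosterol to cholesterol. Most of these enzymes are targets of SREBP2, the product of SREBF2. SCAP carries SREBP2 to the Golgi for cleavage when sterols are low, and the INSIG proteins retain the complex when sterols are high. Growing epithelial tumour cells both make and import cholesterol.

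The promoters of 3 members are shown because SREBP2 is known to act at sterol regulatory elements beside CCAAT and GC boxes, and because these genes differ in their motifs. Each sequence comes from RefSeq (GRCh38.p14), runs from 250 bases before to 50 bases after an annotated start on the strand of the gene, and has matches to TCACNCCAC, CCAAT or GGGCGG, on either strand, in capitals. SREBF2 encodes SREBP2 itself, and its window is chr22:41832855-41833154 on the plus strand. HMGCS1 encodes HMG-CoA synthase, and its window is chr5:43313363-43313662 on the minus strand. DHCR7 encodes the reductase that turns 7-dehydrocholesterol into cholesterol, and its window is chr11:71448344-71448643 on the minus strand. HMGCS1 and DHCR7 were added after their values were seen, each with the annotated start that has the most matches.
SREBF2: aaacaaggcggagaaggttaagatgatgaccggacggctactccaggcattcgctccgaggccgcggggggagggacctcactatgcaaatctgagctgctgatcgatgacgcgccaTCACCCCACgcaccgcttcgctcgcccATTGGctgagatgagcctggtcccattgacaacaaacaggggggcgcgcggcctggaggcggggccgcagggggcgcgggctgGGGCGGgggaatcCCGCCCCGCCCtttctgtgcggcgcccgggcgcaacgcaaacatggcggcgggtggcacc
HMGCS1: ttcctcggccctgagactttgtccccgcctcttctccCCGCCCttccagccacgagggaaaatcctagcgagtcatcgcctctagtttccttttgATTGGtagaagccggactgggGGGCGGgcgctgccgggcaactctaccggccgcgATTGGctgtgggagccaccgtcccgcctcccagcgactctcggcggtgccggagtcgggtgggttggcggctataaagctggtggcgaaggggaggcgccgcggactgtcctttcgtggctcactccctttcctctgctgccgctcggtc
DHCR7: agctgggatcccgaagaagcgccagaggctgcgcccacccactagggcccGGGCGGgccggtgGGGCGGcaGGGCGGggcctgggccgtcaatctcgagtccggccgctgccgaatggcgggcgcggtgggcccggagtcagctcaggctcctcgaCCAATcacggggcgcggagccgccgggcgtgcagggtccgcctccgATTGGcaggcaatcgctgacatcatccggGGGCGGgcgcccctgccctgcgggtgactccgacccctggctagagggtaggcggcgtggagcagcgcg
The SREBF2 window held the only match to TCACNCCAC, the core of the sterol regulatory element, among the 24 members with a window. It began 133 bases before the start, and a CCAAT box on the opposite strand began 106 bases before the start. The HMGCS1 window held 2 CCAAT matches and 2 GGGCGG matches, and the DHCR7 window held 2 and 4. CCAAT matched in 18 of the 24 members (75.0%), beside 39.7% of all 27305 genes with a window and 43.0% of the 9597 tested genes with one. GGGCGG matched in 22 of the 24 members (91.7%), beside 48.3% and 78.3% of those genes. TCACNCCAC matched in 4.17% of the members, 1.39% of all genes and 1.46% of tested genes. In these windows no base belonged to matches of 2 motifs, although the last GGGCGG matches of SREBF2, both on the opposite strand, overlapped each other. A match describes letters only.

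Libraries held 19732681 to 27039520 counts. The current annotation of CRLM1 is LINC01767, as the study's text states, and the count table lists it as RP4-710M16.2. This gene had 587 to 658 CPM (counts per unit of TMM-scaled library size, the usual depth-corrected level) in the 6 CRLM1 libraries, 39.1 to 50.01 CPM in the 6 Antisense libraries and no count in the 6 Ctrl libraries. HNRNPK was at 424 to 480 CPM in the 9 NC libraries and at 532 to 713 CPM in 8 of the 9 hnRNPK libraries, while the library labelled Ctrl_hnRNPK replicate 3 had 491 CPM. The log2 fold change of HNRNPK with the construct was 0.29 in Ctrl, 0.56 in CRLM1 and 0.35 in Antisense. Adjusted p was 0.36, 0.53 and 0.00084 (edgeR's quasi-likelihood test). Without replicate 3 of the hnRNPK group it was 0.44 in Ctrl and 0.65 in CRLM1 on the log2 scale. With a trend of fold change over GC content and transcript length removed, the 3 backgrounds had -0.04, 0.27 and -0.19. None of these last values passed an adjusted p of 0.05. The libraries labelled Ctrl_hnRNPK replicate 3 and CRLM1_hnRNPK replicate 3 stood apart. Over 12965 genes, the correlation of their log2 profile with the other libraries of their group was 0.946 to 0.96, and with the NC libraries of their background it was 0.987 to 0.993. The study left both libraries out of its own analyses. Here they were kept unless their removal is stated. Counts of members that passed with hnRNPK in Ctrl and CRLM1, and for the interactions, are given with and without them. The correlations with GC content and the fit of all libraries are given only with them. So are the results of the related lists with hnRNPK in Ctrl and CRLM1. Among the epithelial markers, EPCAM, KRT8, KRT18, KRT19 and CDH1 had at least 83.3 CPM in every library, whereas VIL1 had at most 0.796 CPM. The sum of these 6 markers moved with the groups, at 6634 to 6893 CPM in Ctrl_NC, 7942 to 8133 CPM in CRLM1_NC, 5296 to 5556 CPM in Antisense_NC, 4649 to 7618 CPM in Ctrl_hnRNPK, 5488 to 9276 CPM in CRLM1_hnRNPK and 3490 to 3608 CPM in Antisense_hnRNPK. In Antisense_NC against Ctrl_NC the log2 fold change was -0.64 for KRT8 and 0.62 for CDH1. The part of this shift in the results was not tested. PTPRC, PECAM1, COL1A2 and ALB, markers of other cell types, had at most 0.147 CPM. In such bulk samples, fewer cells of a type and less RNA per cell cannot be told apart.

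**Figure D1:**
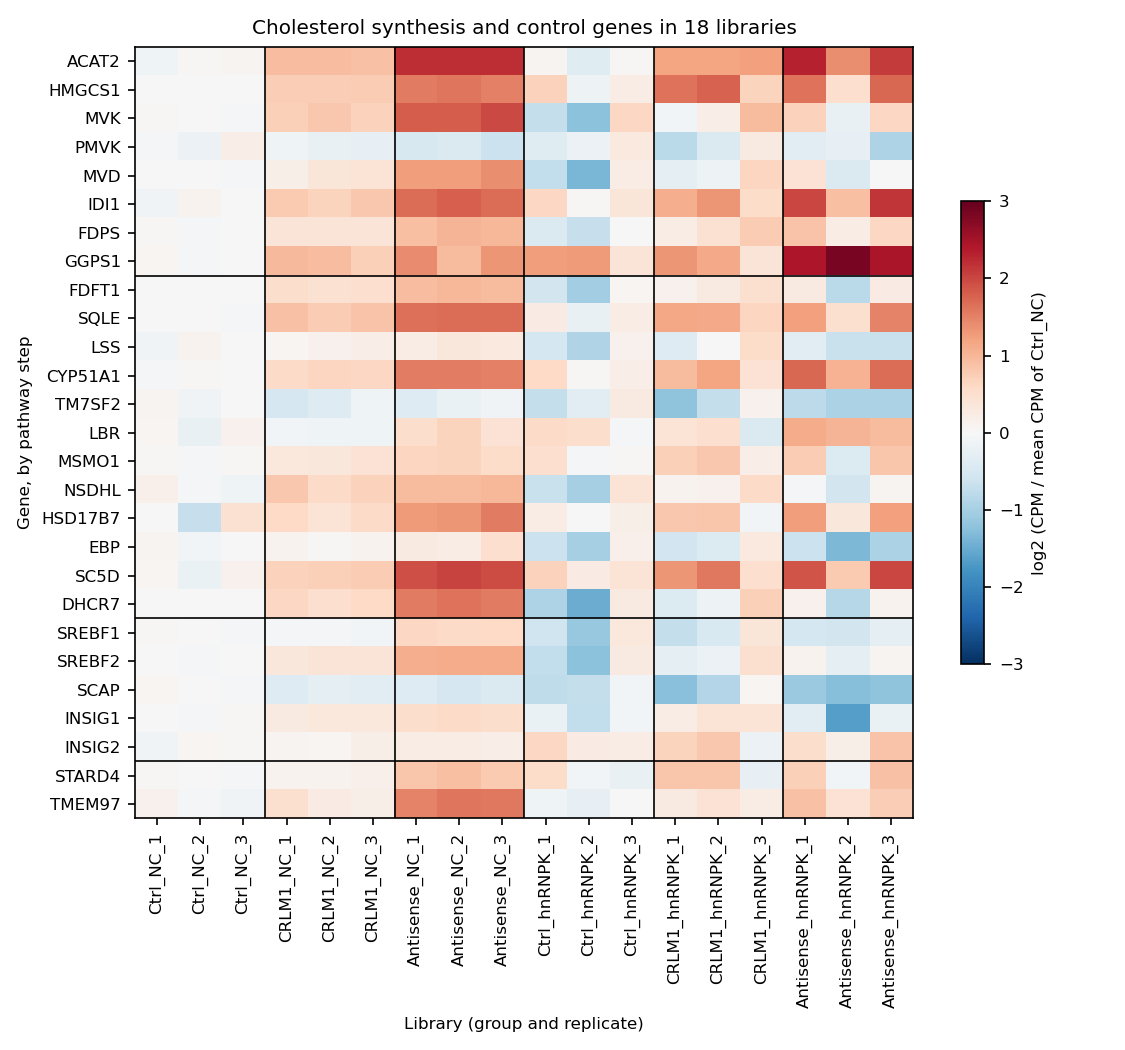
Level of each of the 27 genes in each of the 18 libraries, as log2 of its CPM over the mean CPM of the 3 Ctrl_NC libraries, with lines between groups and between pathway steps. The 3 Antisense_NC columns are red for 24 genes, and among the hnRNPK columns replicate 3 of Ctrl and CRLM1 differs from replicates 1 and 2.

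In the absence of the hnRNPK construct, the pathway was lowest in Ctrl_NC, intermediate in CRLM1_NC and highest in Antisense_NC. The summed level of the 27 genes was 2530, 2453 and 2502 CPM in Ctrl_NC, 3124, 3121 and 3188 CPM in CRLM1_NC, and 4808, 4932 and 4863 CPM in Antisense_NC. The 3 groups did not overlap in this sum. For 17 genes, every Ctrl_NC library was below every CRLM1_NC library, and every CRLM1_NC library was below every Antisense_NC library. The share of all genes with this order was not counted, so this number describes the 27 genes only.

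Comparing Antisense_NC with Ctrl_NC addressed what the antisense construct alone was associated with. All 27 genes passed an adjusted p of 0.05 in edgeR's quasi-likelihood test, 24 of them higher and 3 lower in Antisense_NC. Over all genes, 34.4% were higher and 32.2% lower at this threshold, so that the count of higher genes was above the background and the number of genes that differed at all was large everywhere. Of the 24 genes, 13 were also at least 2-fold higher, beside 7.19% of all genes. The median log2 fold change was 0.94 over the 27 genes and -0.0025 over all genes tested, and by step it was 1.38 in the mevalonate arm, 0.92 in the sterol arm, 0.50 among the regulators and 1.15 for the sterol handling genes. When all 18 libraries were fitted together, which includes the spread of the libraries that stood apart, 17 of the 27 genes passed. With a trend of fold change over GC content and transcript length removed, LBR, PMVK, MSMO1 and STARD4 were nearer to 0, at 0.15, -0.29, 0.29 and 0.46, and EBP was further from it at 0.49. SC5D, HMGCS1, IDI1, CYP51A1 and GGPS1 also moved nearer, from 1.93, 1.51, 1.66, 1.48 and 1.19 to 1.54, 1.14, 1.39, 1.21 and 0.92. GGPS1 was then under 2-fold. MVD, NSDHL and FDPS moved further, from 1.26, 0.93 and 0.94 to 1.47, 1.04 and 1.06, so that NSDHL and FDPS were then above 2-fold.

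In the mevalonate arm, 7 of 8 enzymes were higher in Antisense_NC, 6 of them at least 2-fold. ACAT2, the cytosolic acetoacetyl-CoA thiolase that opens the pathway, was at 13.3, 15.05 and 15.6 CPM in Ctrl_NC and at 68.0, 67.8 and 68.2 CPM in Antisense_NC, a log2 fold change of 2.16 (SE 0.07, adjusted p = 7.9e-25). HMGCS1, which makes HMG-CoA, was at 56.6, 57.2 and 57.8 CPM in Ctrl_NC and at 169, 174 and 163 CPM in Antisense_NC, a log2 fold change of 1.51 (SE 0.05, adjusted p = 3.5e-26). For both enzymes all Antisense_NC libraries were above all Ctrl_NC libraries, with a gap far wider than the spread within either group. Mevalonate kinase (MVK) was at 16.5, 15.8 and 15.7 CPM in Ctrl_NC and rose to 56.5, 56.4 and 63.7 CPM, a log2 fold change of 1.83 (SE 0.07). The decarboxylase MVD and the isomerase IDI1, which make the isoprene units, rose by log2 fold changes of 1.26 and 1.66. GGPS1, which makes geranylgeranyl diphosphate for protein prenylation, was a low gene with 3.64, 3.36 and 3.48 CPM in Ctrl_NC and 9.30, 6.71 and 8.75 CPM in Antisense_NC. FDPS, the farnesyl diphosphate synthase, rose by 0.94 on the log2 scale. PMVK, the phosphomevalonate kinase between MVK and MVD, was the exception. It was at 19.4, 18.1 and 23.4 CPM in Ctrl_NC and at 14.6, 15.2 and 12.9 CPM in Antisense_NC, so that all Antisense_NC libraries were below the Ctrl_NC libraries (log2 fold change -0.56, SE 0.10, adjusted p = 1.2e-05).

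In the sterol arm, 11 of 12 enzymes were higher in Antisense_NC, 5 of them at least 2-fold. Squalene epoxidase (SQLE), a rate-limiting enzyme, was at 55.3, 55.1 and 53.8 CPM in Ctrl_NC and at 172, 174 and 175 CPM in Antisense_NC (log2 fold change 1.62, SE 0.04, adjusted p = 2.3e-27). The desaturase SC5D rose from 15.4, 12.8 and 16.3 CPM to 56.4, 60.8 and 57.5 CPM, a log2 fold change of 1.93 (SE 0.08). DHCR7 rose from 175, 173 and 171 CPM to 511, 531 and 509 CPM, a log2 fold change of 1.54 (SE 0.03). In these 3 enzymes the lowest Antisense_NC library was far above the highest Ctrl_NC library. The lanosterol demethylase CYP51A1 and HSD17B7, a reductase of the sterol demethylation complex, had log2 fold changes of 1.48 and 1.34, the latter from only 1.08 to 2.41 CPM in Ctrl_NC. FDFT1, the squalene synthase, and NSDHL, also of the demethylation complex, rose by 0.92 and 0.93 on the log2 scale. The oxidase MSMO1 rose by 0.58, the isomerase EBP by 0.28 and lanosterol synthase (LSS) by 0.23. LBR and TM7SF2 encode sterol reductases of the same step, and they went in opposite directions. LBR was at 44.2, 36.2 and 46.1 CPM in Ctrl_NC and at 60.8, 67.0 and 56.8 CPM in Antisense_NC (log2 fold change 0.50, SE 0.07). TM7SF2 was at 38.1, 33.4 and 36.2 CPM in Ctrl_NC and at 27.6, 31.4 and 33.1 CPM in Antisense_NC (log2 fold change -0.27, SE 0.08), and its lower call did not hold in 4 of 14 alternatives, namely with the GC content and length trend removed, in a fit of all libraries and in both limma fits of FPKM.

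Among the regulators, SREBF2 rose from 432, 413 and 433 CPM in Ctrl_NC to 901, 924 and 917 CPM in Antisense_NC, a log2 fold change of 1.05 (SE 0.03, adjusted p = 2.6e-26). SREBF1, which encodes SREBP1 and is better known for fatty acid synthesis, rose by 0.56 (SE 0.03) on the log2 scale. INSIG1, the sterol-regulated retention protein, was at 292, 283 and 296 CPM in Ctrl_NC and at 419, 434 and 421 CPM in Antisense_NC, with no overlap (log2 fold change 0.50, SE 0.03). INSIG2 had 42.2, 47.2 and 46.2 CPM in Ctrl_NC and 52.3, 52.3 and 51.6 CPM in Antisense_NC, a log2 fold change of 0.15 (SE 0.06, adjusted p = 0.029) that turned to -0.18 when the trend of fold change with GC content and transcript length was removed. SCAP was lower, at 78.2, 74.9 and 74.0 CPM in Ctrl_NC and 58.0, 53.5 and 55.7 CPM in Antisense_NC (log2 fold change -0.49, SE 0.05). Thus SREBF2 and its escort SCAP moved in opposite directions. The sterol carrier STARD4 and TMEM97, an endoplasmic reticulum protein that binds NPC1, rose by 0.80 (SE 0.05) and 1.51 (SE 0.07) on the log2 scale, STARD4 from 74.4 to 79.4 CPM in Ctrl_NC to 134 to 145 CPM in Antisense_NC.

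**Figure D2:**
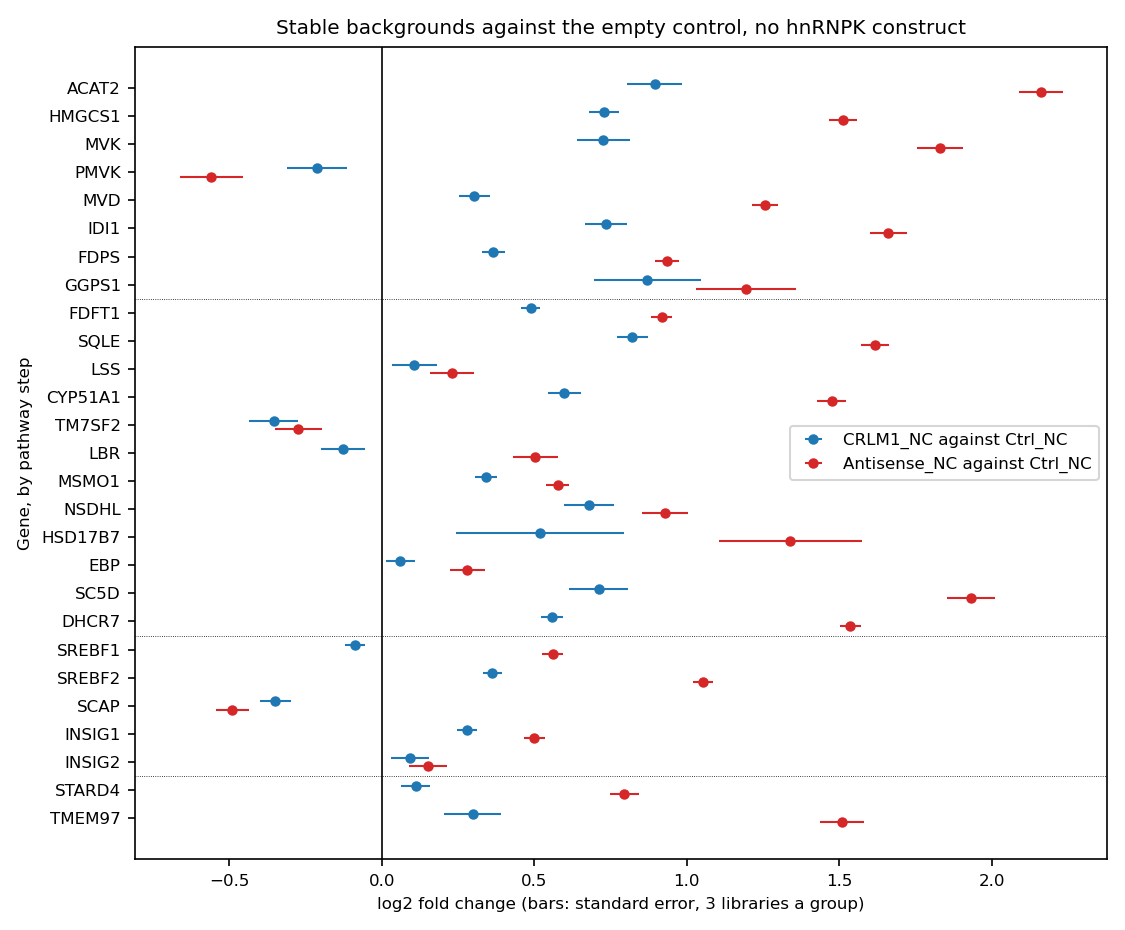
Log2 fold change with its standard error of each gene in Antisense_NC (red) and CRLM1_NC (blue), each against the same 3 Ctrl_NC libraries, by pathway step. Antisense_NC lies at or above 1 for 13 genes and below 0 for PMVK, TM7SF2 and SCAP.

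CRLM1_NC was then compared with the same Ctrl_NC libraries, so that this result and the one above share their controls. Of the 27 genes, 17 were higher, 3 were lower and 7 did not pass, beside 16.9% of all genes higher and 17.4% lower. None was changed 2-fold, beside 1.58% of all genes in either direction. The median log2 fold change was 0.36 over the 27 genes and 0.01 over all genes, with 0.73 in the mevalonate arm and 0.50 in the sterol arm. In a single fit of all 18 libraries 1 of the 27 genes, ACAT2, passed.

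ACAT2 had 27.8, 28.0 and 27.02 CPM in CRLM1_NC, above every Ctrl_NC library, with a log2 fold change of 0.89 (SE 0.09, adjusted p = 1.5e-10). SQLE had 101, 93.3 and 99.1 CPM (log2 fold change 0.82, SE 0.05), and HMGCS1 had 95.1, 94.8 and 97.7 CPM (log2 fold change 0.73, SE 0.05). These 3 levels lay between those of Ctrl_NC and Antisense_NC in every library. GGPS1, MVK, IDI1, SC5D, NSDHL, CYP51A1 and DHCR7 rose by 0.56 to 0.87 on the log2 scale. SREBF2 had 543, 560 and 559 CPM (log2 fold change 0.36, SE 0.03), and INSIG1 had 348, 361 and 359 CPM (log2 fold change 0.28, SE 0.03). FDFT1, FDPS, MSMO1, MVD and TMEM97 rose by 0.30 to 0.49. TM7SF2 and SCAP were lower, both by a log2 fold change of -0.35. The calls of TM7SF2 and TMEM97 each did not hold in 3 of the 14 alternatives. SREBF1 was at 263, 263 and 258 CPM beside 284, 271 and 270 CPM in Ctrl_NC, a log2 fold change of -0.09 with an adjusted p of 0.038 that did not hold in 9 of the 14 alternatives. PMVK, LSS, LBR, HSD17B7, EBP, INSIG2 and STARD4 did not pass.

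In the direct comparison of CRLM1_NC with Antisense_NC, 21 genes were lower and 2 were higher in CRLM1_NC, beside 29.5% of all genes lower and 26.9% higher. ACAT2, MVK, SC5D and TMEM97 were lower by at least 2-fold, as were 3.17% of all genes. ACAT2 had the largest difference among the 27, with a log2 fold change of -1.26 (SE 0.06, adjusted p = 3.0e-19), followed by SC5D with -1.22 (SE 0.07). PMVK and SCAP were higher, by log2 fold changes of 0.35 (SE 0.10) and 0.15 (SE 0.06), although PMVK did not pass in 4 of the 14 alternatives and SCAP in 7, and SCAP turned to -0.0189 in limma on FPKM. In the single fit of all 18 libraries 10 of the 23 genes passed. With the GC content and length trend removed, HMGCS1, LBR and STARD4 moved from -0.78, -0.63 and -0.68 to -0.51, -0.35 and -0.41, and EBP from -0.21 to -0.38. In this fit LSS and TM7SF2 newly passed as lower, at -0.17 and -0.23, and INSIG2 as higher, at 0.22. PMVK, MSMO1 and SCAP no longer passed in it, and 7595 of all genes did. With no trend removed, GGPS1, LSS, TM7SF2 and INSIG2 did not pass.

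Per length, the levels of the members in Ctrl_NC ranged from 0.747 ± 0.29 FPKM for HSD17B7 (SD, n = 3) and 0.79 ± 0.03 FPKM for GGPS1 to 65.9 ± 1.6 FPKM for INSIG1. INSIG1 was followed by SREBF2 at 55.5 ± 1.6 FPKM, FDPS at 51.9 ± 1.5 FPKM and MSMO1 at 51.3 ± 1.8 FPKM, of which FDPS and MSMO1 differed by less than their SD. In Antisense_NC the order of the highest was DHCR7 at 154 ± 4.4 FPKM, SREBF2 at 136 ± 1.7 FPKM and FDPS at 117 ± 4.8 FPKM, and INSIG1 followed with 110 ± 2.5 FPKM. In limma on log2(FPKM + 0.1) the median log2 fold change of all genes between Antisense_NC and Ctrl_NC was 0.21, against -0.0025 in the edgeR fit of counts.

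**Figure D3:**
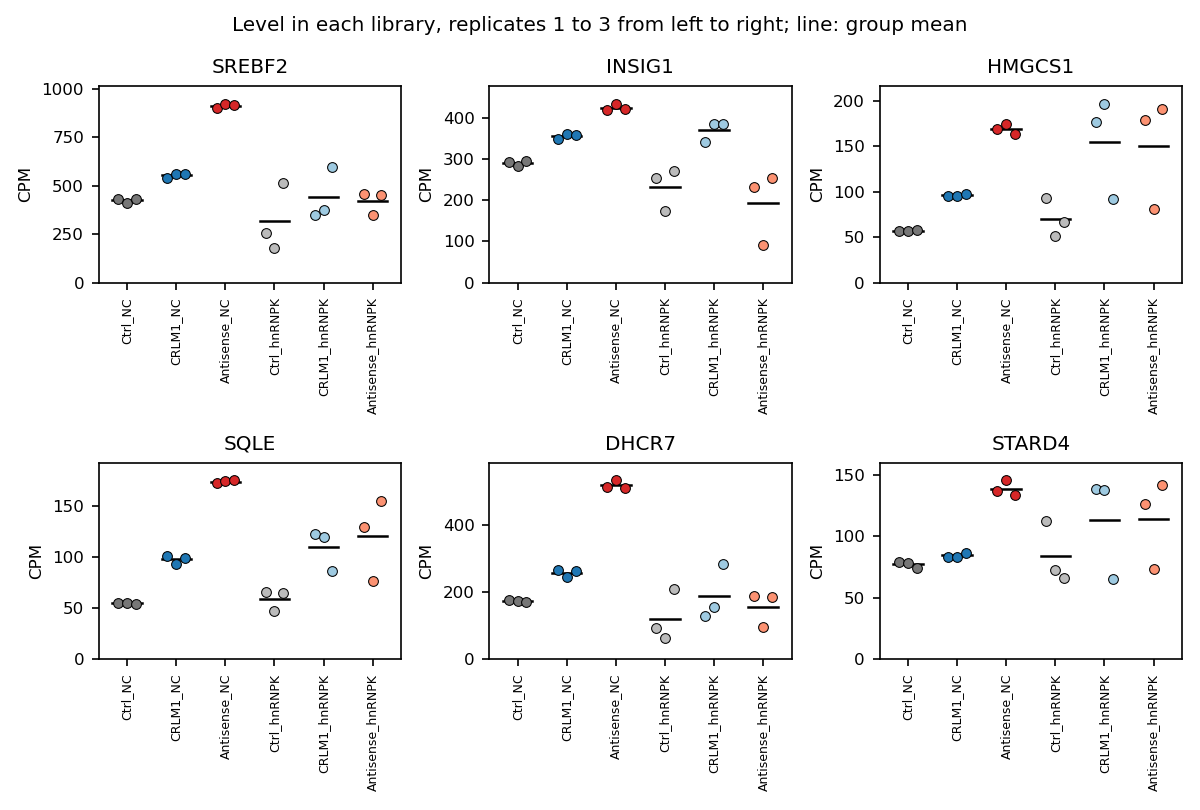
CPM of SREBF2, INSIG1, HMGCS1, SQLE, DHCR7 and STARD4 in every library, replicates 1 to 3 from left to right in each group, with a line at the group mean and a vertical axis from 0. Antisense_NC is separate from Ctrl_NC and CRLM1_NC in all 6 genes, while the hnRNPK groups are spread widely, as in Antisense_hnRNPK with 178, 80.5 and 190 CPM of HMGCS1.

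The next comparisons addressed the hnRNPK construct within each background. In the Antisense background the pathway was mostly lower with hnRNPK. The 27 genes summed to 3270, 2006 and 3302 CPM in Antisense_hnRNPK, all below the 4808 to 4932 CPM of Antisense_NC. Of the 27 genes, 15 were lower and 3 were higher, while 9 did not pass, beside 30.5% of all genes lower and 33.4% higher. At least 2-fold, 8 were lower and 1 was higher, beside 6.1% and 7.28% of all genes. The median log2 fold change was -0.54 over the 27 genes and 0.04 over all genes.

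The regulators included the clearest differences. SREBF2 was at 460, 351 and 450 CPM in Antisense_hnRNPK, below every Antisense_NC library (log2 fold change -1.13, SE 0.10, adjusted p = 3.6e-07). SREBF1 was at 191, 189 and 226 CPM, against 426, 412 and 419 CPM in Antisense_NC (log2 fold change -1.06, SE 0.08). INSIG1 was at 231, 91.7 and 254 CPM, below all 3 Antisense_NC libraries but with one library far below the other two (log2 fold change -1.15, SE 0.32, adjusted p = 0.013), and it did not pass without replicate 3, under the replicate block or without the filter. SCAP was at 35.2, 31.2 and 33.0 CPM (log2 fold change -0.76, SE 0.08). INSIG2 was the regulator that was higher, at 65.5, 51.3 and 81.9 CPM (log2 fold change 0.34, SE 0.12, adjusted p = 0.027), and its groups overlapped. It did not pass in 6 of the 14 alternatives, and it turned to -0.36 with the GC content and length trend removed.

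In the sterol arm, DHCR7 had the largest difference of the 27. It was at 188, 95.1 and 185 CPM in Antisense_hnRNPK against 509 to 531 CPM in Antisense_NC (log2 fold change -1.74, SE 0.22, adjusted p = 0.00017). EBP was at 53.6, 33.1 and 43.6 CPM (log2 fold change -1.29, SE 0.14), and NSDHL was at 22.1, 15.6 and 24.3 CPM (log2 fold change -1.13, SE 0.12). These 3 enzymes of the later steps were separate from their Antisense_NC libraries. FDFT1, LSS, TM7SF2 and SQLE were also lower, by log2 fold changes of -0.99, -0.83, -0.67 and -0.54, and LBR was higher at 0.48. SQLE, with an adjusted p of 0.04, did not pass in 7 of the 14 alternatives. CYP51A1, MSMO1, HSD17B7 and SC5D did not pass, with log2 fold changes of -0.02, -0.14, -0.39 and -0.34.

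In the mevalonate arm, MVK was at 25.8, 13.8 and 24.5 CPM (log2 fold change -1.48, SE 0.18) and MVD was at 119, 65.9 and 89.7 CPM (log2 fold change -1.27, SE 0.17), both below every Antisense_NC library. FDPS was lower by a log2 fold change of -0.40, and it did not pass in 4 of the 14 alternatives. GGPS1 went the other way, from 9.30, 6.71 and 8.75 CPM in Antisense_NC to 18.6, 25.3 and 19.0 CPM in Antisense_hnRNPK (log2 fold change 1.35, SE 0.16, adjusted p = 5.7e-06), and GGPS1 shares exon bases with another annotated gene on its strand. The first enzymes were not called. HMGCS1 was at 178, 80.5 and 190 CPM beside 169, 174 and 163 CPM in Antisense_NC, so that 2 hnRNPK libraries were above and 1 was far below all NC libraries (log2 fold change -0.18, SE 0.27, adjusted p = 0.58). ACAT2, PMVK and IDI1 had log2 fold changes of -0.24, 0.06 and 0.05. Of the sterol handling genes, TMEM97 was lower at 36.0, 26.47 and 32.7 CPM (log2 fold change -0.87, SE 0.10) and STARD4 was at 126, 73.1 and 142 CPM, which overlapped Antisense_NC.

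Replicate 2 of Antisense_hnRNPK was the lowest of its group in 24 of the 27 genes, by a median log2 difference of -0.65 from the mean of the other two. Without it, 15 genes were lower and 4 higher, IDI1 being the addition, beside 9385 of all genes that passed in either direction. Replicate 2 of Ctrl_hnRNPK was likewise the lowest in 20 of 27 genes, by a median of -0.45. Whether these libraries differed in culture or preparation was not tested.

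The hnRNPK differences moved with the GC content of the genes. Across the 27 genes, Spearman's rho of log2 fold change with the GC content of the longest transcript was -0.79 in Ctrl, -0.81 in CRLM1 and -0.64 in Antisense, and across all genes it was -0.71, -0.63 and -0.71. These are correlations across genes that share libraries, and genes are not independent replicates. In the Antisense background, 10 of the 11 members with at least 50% GC were lower, whereas of the 16 members under 50% GC 5 were lower and 3 higher. The shares of all genes in these GC classes were not counted, and over all genes the fold change also fell with GC content. The split is therefore not read as a trait of the members. When a smooth trend of fold change with GC content and transcript length was removed from the counts, 20 of the 27 genes were lower and 2 higher, beside 22.4% and 16.7% of all genes. The lower genes then were 13 of the 16 under 50% GC and 7 of the 11 above it. HMGCS1, ACAT2, SC5D and STARD4 now passed, with log2 fold changes of -0.84, -0.81, -1.05 and -1.001. CYP51A1, MSMO1 and HSD17B7 also newly passed as lower, at -0.58, -0.86 and -0.92, and PMVK newly passed as higher, at 0.52. FDPS, TM7SF2, SCAP and LBR no longer passed, INSIG2 turned to -0.36, and DHCR7 and SREBF2 remained lower at -1.23 and -0.67. SREBF1, LSS, MVD and MVK also remained lower, but moved to -0.41, -0.34, -0.63 and -0.96, and GGPS1 remained higher at 0.74. The part of GC content in the hnRNPK differences was not tested.

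**Figure D4:**
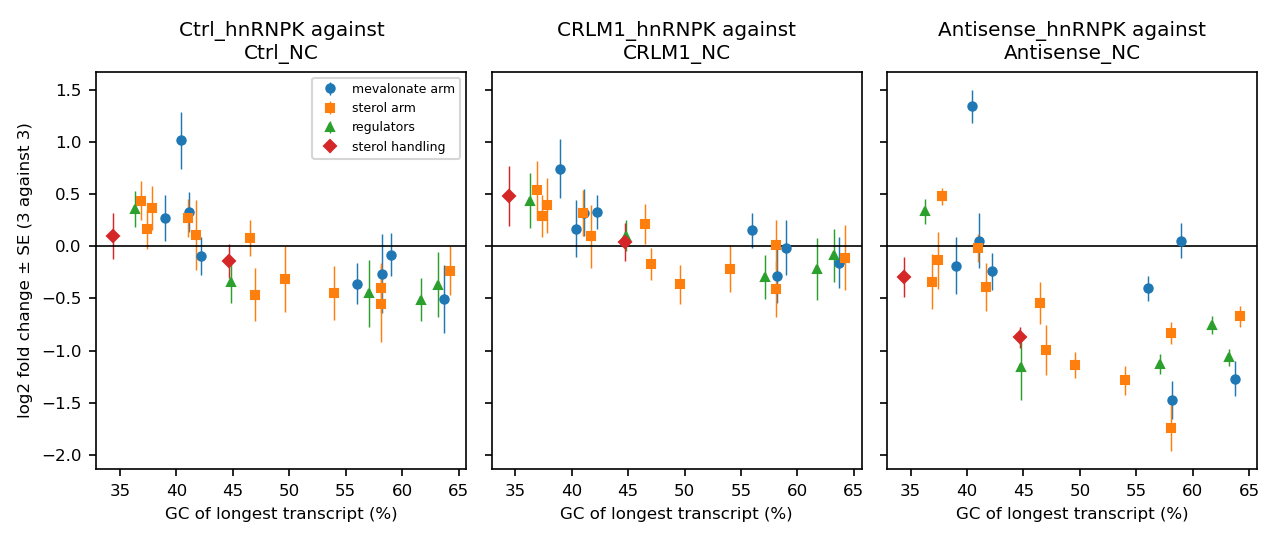
Log2 fold change (± SE) with hnRNPK against the GC content (%) of the longest transcript for the 27 genes, in the Ctrl, CRLM1 and Antisense backgrounds, with a marker for each pathway step. In all 3 backgrounds, with all libraries kept, the fold change is lower at higher GC content, with Spearman's rho of -0.79, -0.81 and -0.64.

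**Figure D5:**
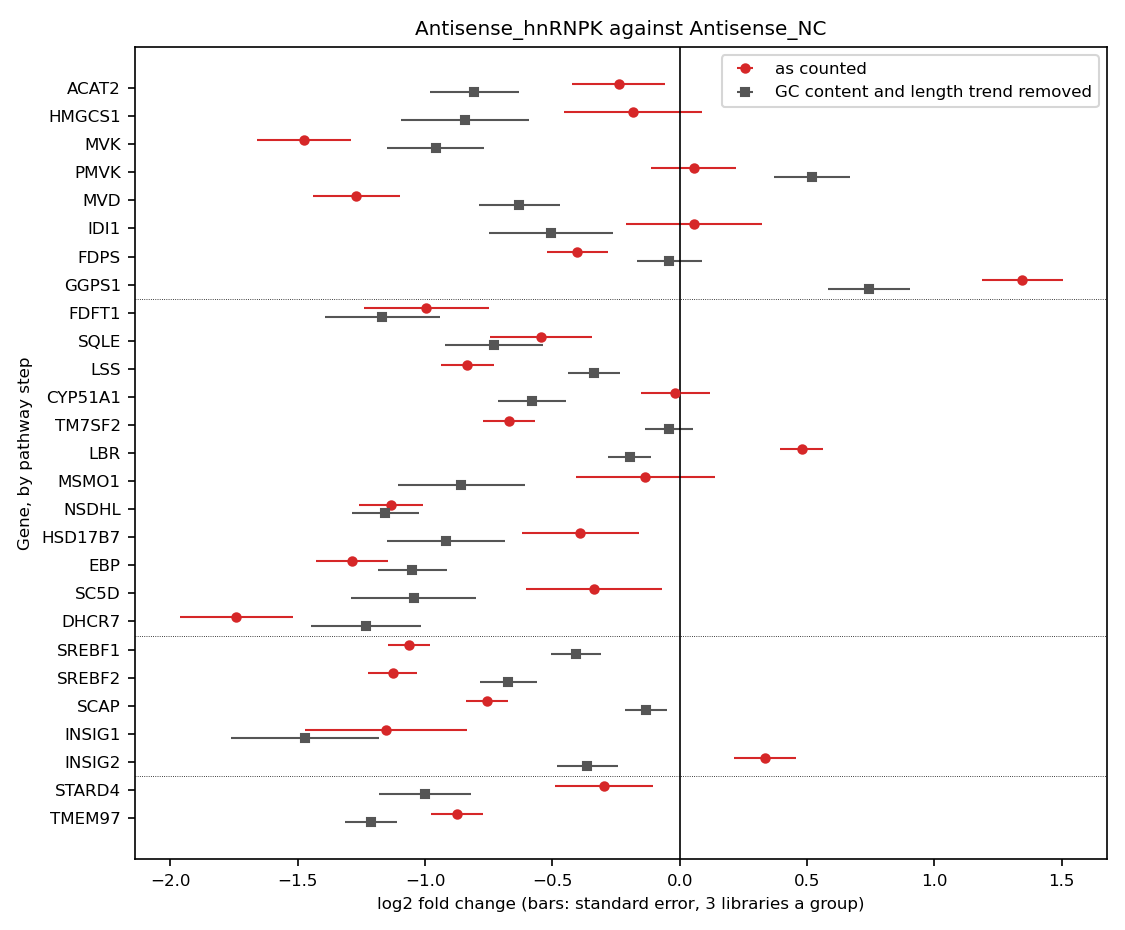
Log2 fold change (± SE) of each gene in Antisense_hnRNPK against Antisense_NC as counted (red circles) and with the trend over GC content and transcript length removed (grey squares). DHCR7, INSIG1 and TMEM97 are below 0 under both, and HMGCS1, SC5D and STARD4 move further below 0 when the trend is removed.

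In the Ctrl and CRLM1 backgrounds none of the 27 genes passed with hnRNPK, beside 0.0% of all genes in each (edgeR's quasi-likelihood test). At an unadjusted p under 0.05 there were 2246 genes in Ctrl and 1332 in CRLM1, and DESeq2 called 1 and 8 genes. The library labelled replicate 3 decided these counts. DHCR7 was at 91.2, 61.7 and 207 CPM in Ctrl_hnRNPK and at 129, 155 and 283 CPM in CRLM1_hnRNPK, and SREBF2 was at 256, 181 and 517 CPM and at 349, 376 and 598 CPM. In both genes replicates 1 and 2 were below every NC library of their background and replicate 3 was above all of them.

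Without replicate 3 of Ctrl_hnRNPK, 13 genes were lower and 6 higher, beside 29.9% and 29.6% of all genes. DHCR7 had a log2 fold change of -1.15 (SE 0.14), MVD -0.998, SREBF2 -0.94 and MVK -0.92, while GGPS1 had 1.30, LBR 0.58 and SC5D 0.51. Without replicate 3 of CRLM1_hnRNPK, 12 genes were lower and 11 higher, beside 29.1% and 29.5% of all genes. Here HMGCS1 had a log2 fold change of 1.01 (SE 0.06), from 94.8 to 97.7 CPM in CRLM1_NC to 176 and 196 CPM in the 2 libraries kept. SC5D and STARD4 had 0.79 and 0.75, and DHCR7, SCAP and SREBF2 had -0.81, -0.68 and -0.56. In Ctrl_hnRNPK 10 of the 11 members with at least 50% GC were lower and all 6 higher members had under 50% GC, and in CRLM1_hnRNPK these counts were 10 and 11. The shares of all genes by GC class were not counted for these fits either. A fit with 2 libraries in 1 arm has less support than the 3 against 3 of the other results.

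Whether the hnRNPK difference itself differed between backgrounds was tested by interaction. None of the 27 genes passed for Antisense minus Ctrl, beside 0.0% of all genes and 2179 genes at an unadjusted p under 0.05. In DESeq2 1 of the 27 passed, beside 267 of all genes. None passed for CRLM1 minus Antisense, beside 1.12% of all genes and 3115 genes at an unadjusted p under 0.05. In DESeq2 10 of the 27 passed, beside 1044 of all genes. With no filter on low counts 13 passed for CRLM1 minus Antisense, beside 906 of all genes in either direction. With the GC content and length trend removed 17 did, 16 of them higher, beside 8.58% of all genes, and GGPS1 lower. In edgeR with the filter and no trend removed, TMEM97 was nearest to passing for CRLM1 minus Antisense, at 0.91 (SE 0.21, adjusted p = 0.052). With the trend removed it passed, at 1.07 (SE 0.16). Without replicate 3 of CRLM1_hnRNPK, 10 genes passed for CRLM1 minus Antisense, beside 17.4% of all genes in either direction, with GGPS1 lower at -0.93 (SE 0.23) and the other 9 higher. STARD4, TMEM97 and SREBF2 had interaction values of 1.06 (SE 0.27), 0.97 (SE 0.16) and 0.58 (SE 0.12). SQLE, at 0.91 (adjusted p = 0.059), and PMVK, at -0.40 (adjusted p = 0.23), did not pass. When replicate 3 of Antisense_hnRNPK, which did not stand apart, was left out as well, 10 genes were higher, SQLE among them, beside 17.3% of all genes, and PMVK and GGPS1 were lower. For Antisense minus Ctrl without replicate 3 of Ctrl_hnRNPK, TMEM97 was the only one of the 27 genes to pass, at -0.73 (SE 0.16), beside 3.77% of all genes lower.

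Related genes outside the pathway were followed in 4 lists. Of 10 genes of SREBP processing and sterol-regulated degradation, 3 were higher and 4 lower in Antisense_NC against Ctrl_NC, near the 34.4% higher and 32.2% lower of all genes. MBTPS2, the site-2 protease that releases SREBP from the membrane, rose by 0.75 (SE 0.13) on the log2 scale, and with hnRNPK in the Antisense background it rose by 0.85 (SE 0.13). MBTPS1 and UBE2G2 of the same list were lower in Antisense_NC, with log2 fold changes of -0.32 (SE 0.05) and -0.60 (SE 0.07). Of 14 genes of sterol transport, storage and efflux, 6 were higher and 5 lower, also near those shares. The lysosomal exporter NPC1 rose from 58.9 to 61.8 CPM to 159 to 174 CPM (log2 fold change 1.40, SE 0.05). The efflux pumps ABCA1 and ABCG1 had log2 fold changes of -1.84 (SE 0.36) and -1.63 (SE 0.24), ABCA1 from 1.32 to 2.80 CPM in Ctrl_NC to 0.256 to 0.844 CPM in Antisense_NC. Of 11 genes of the non-sterol isoprenoid branch, 5 were higher and 1 lower, with dolichol kinase (DOLK) at 2.57 (SE 0.38) from 0.110 to 0.535 CPM in Ctrl_NC. Of 8 genes of the fatty acid arm, 6 were higher and 1 lower, led by the acetyl-CoA synthetase ACSS2 at 1.496 (SE 0.05). The median log2 fold changes of the 4 lists, in the order given, were 0.01, -0.09, 0.19 and 0.48, beside -0.0025 for all genes. With hnRNPK in the Antisense background, 5 of these 8 were lower and 2 higher, beside 30.5% of all genes lower and 33.4% higher, and FASN fell from 2168 to 2192 CPM to 553, 246 and 567 CPM (log2 fold change -2.27, SE 0.28). In the other lists the split was 4 higher and 2 lower, 4 higher and 5 lower, and 6 higher and 1 lower, in the order given. In CRLM1_NC against Ctrl_NC the 4 lists had 2 higher and 4 lower, 3 and 2, 2 and 1, and 3 and 0, beside 16.9% of all genes higher and 17.4% lower. In CRLM1_NC against Antisense_NC they had 2 and 3, 3 and 5, 1 and 5, and 0 and 7, beside 26.9% higher and 29.5% lower. With replicate 3 kept, no gene of these lists passed with hnRNPK in the Ctrl or CRLM1 background, beside 0.0% of all genes in each. Without replicate 3 of the hnRNPK group, 8935 of all genes passed in Ctrl and 8596 in CRLM1. The lists are not given for those fits.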

How the data were processed

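Libraries were made from total RNA with the KAPA RNA HyperPrep kit and sequenced as 151 nt read pairs. The authors aligned reads to GRCh38 with TopHat2, allowing 4 mismatches, and counted uniquely mapped reads per Gencode version 23 gene. They deposited a table of read counts and a table of FPKM values (fragments scaled by gene length and library size), both per library. Whether counting used strand is not given in the sources used here, so the 15 members whose exons share bases with another gene, and HSD17B7 and FDPS, which have pseudogene copies, are uncertain. The hnRNPK vector is named differently in the labels and in the study's methods. The 27 members, the related lists and the tests were chosen with earlier results of these data known. All members were named, and of each related list at most the 3 genes with the largest absolute log2 fold change among those past the threshold in a comparison. MBTPS1 was named in addition. 1 gene of these lists is counted but not reported by name here.

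Counts were tested with edgeR 4.0.16 (TMM, filterByExpr, robust quasi-likelihood F-test, two-sided) in R 4.3.3 on the groups compared, with interactions on 4 groups. P-values were adjusted by Benjamini-Hochberg over all genes tested. A gene passed at an adjusted p of 0.05, and the SE is the log2 fold change divided by the square root of F. Alternatives were RLE size factors, no filter, DESeq2 1.42.0, limma-trend 3.58.1 on log2(FPKM + 0.1) and log2(FPKM + 1), a fit of all 18 libraries, a replicate block, removal of each library, and offsets from splines with 5 degrees of freedom for GC content and length of the longest Gencode version 44 transcript, known for 96.8% of genes. The labels call the libraries biological replicates, so p-values measure the spread between cultures of the same lines as far as these were separate.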

Additional observations from a re-analysis of the deposited data

Results flagged for a closer look

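In 3 of the 8 genes of the fatty acid arm, beside 1.12% of all genes in either direction, the log2 fold change with hnRNPK was higher in the CRLM1 than in the Antisense background by an interaction test in edgeR's quasi-likelihood model. The interaction value (CRLM1 minus Antisense, log2) was 1.93 for FASN (SE 0.42, adjusted p = 0.039), 1.06 for ACLY (SE 0.22, adjusted p = 0.036) and 1.00 for ACSS2 (SE 0.21, adjusted p = 0.036). FASN, the fatty acid synthase, was at 1807, 1818 and 1825 CPM in CRLM1_NC and at 946, 1114 and 2154 CPM in CRLM1_hnRNPK, and at 2192, 2192 and 2168 CPM in Antisense_NC and 553, 246 and 567 CPM in Antisense_hnRNPK. Replicate 3 of CRLM1_hnRNPK, a library that stood apart, was the highest of its group in all 3 genes. Without it the values were 1.51, 1.01 and 0.86, and all 3 still passed. FASN and ACSS2 did not pass in 9 of the 21 alternatives and ACLY in 8 of them.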

How the results depend on the processing

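In edgeR's quasi-likelihood test 20 of the 27 genes passed for CRLM1_NC against Ctrl_NC, 27 for Antisense_NC against Ctrl_NC, 23 for CRLM1_NC against Antisense_NC, 18 for hnRNPK in Antisense, and none for hnRNPK in Ctrl, in CRLM1 or for either interaction. Leaving out 1 library at a time, or replicate 3 of both hnRNPK groups for the interactions, gave 18 to 22, 26 to 27, 22 to 23 and 15 to 19 genes, 0 to 19 for hnRNPK in Ctrl, 0 to 23 in CRLM1, 0 to 1 for the interaction of Antisense minus Ctrl and 0 to 12 for CRLM1 minus Antisense. The values of 19 and 23 were those without replicate 3 of the hnRNPK group. For CRLM1 minus Antisense, 9 genes passed without CRLM1_hnRNPK replicate 1 and 10 without its replicate 3, beside 1108 and 2705 of all genes. A single fit of all 18 libraries left 1, 17 and 10 genes in the first 3 comparisons. For CRLM1 minus Antisense it gave 1, beside 180 of all genes. With no filter, 1 gene passed for hnRNPK in Ctrl, and 6 and 13 for the interactions, beside 253, 391 and 906 of all genes. DESeq2 gave 1 and 10 for the interactions, beside 267 and 1044 of all genes. Removing the GC content and length trend gave 1 and 17, beside 215 and 1874 of all genes. Limma on log2(FPKM + 1) gave 1 for CRLM1 minus Antisense, beside 845 of all genes. Without replicate 3 of Ctrl_hnRNPK 1 gene passed for Antisense minus Ctrl, beside 1042 of all genes. With the trend removed, INSIG2 turned to -0.18 for Antisense_NC against Ctrl_NC, to 0.22 for CRLM1_NC against Antisense_NC and to -0.36 for hnRNPK in Antisense, LBR turned to -0.20 in the latter and MSMO1 to 0.017 for CRLM1_NC against Antisense_NC. SCAP turned to -0.0189 and -0.0174 in the 2 limma fits of that comparison, and LSS ranged from -0.26 without replicate 3 to 0.19 without replicate 1 for hnRNPK in CRLM1. The cause was not tested.

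Over single genes, 1579 of the values under the other settings and 1573 of those with libraries left out kept their direction and side of the threshold. Under the other settings 70 values newly passed, 72 no longer passed and 7 turned direction. With libraries left out these numbers were 80, 20 and 1. The values that were kept include comparisons in which none of the 27 genes passed. The replicate numbers did not pair the samples, with correlations of deviations from -0.068 to 0.034. With the replicate block 20, 27, 23 and 17 of the 27 genes passed in the first 4 comparisons, and 0 elsewhere. Over all genes, the single fit lowered the count past the threshold from 4960 to 102 for CRLM1_NC against Ctrl_NC, from 9575 to 5093 for Antisense_NC against Ctrl_NC and from 8102 to 2357 for CRLM1_NC against Antisense_NC. For hnRNPK in Antisense the removed trend lowered it from 9268 to 5604. Limma on log2(FPKM + 0.1) called 6688 genes higher and 2818 lower for Antisense_NC against Ctrl_NC, where TMM counts gave 4944 and 4631. In that FPKM fit the median of all genes was 0.21, and for hnRNPK in Antisense it was 0.25. HSD17B7 and GGPS1 had the lowest levels per length of the 27 genes in Ctrl_NC.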
